A study of Mus musculus with 60 samples.

Results

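Broad H4K8ac domains were the stretches of the mouse genome where at least 1 of 6 H4K8ac peak lists held a peak of 5000 bp or more, with overlapping peaks of that width merged across lists. The width of the peaks is therefore what chose them, and widths are given below as a description. There were 1857 merged domains, built from 3468 broad peaks, against 63514 merged H4K8ac regions in the series, so 2.92% of all regions held a broad peak. The domains covered 13.9 Mb of the mm10 (GRCm38) genome and ran from 5000 to 46907 bp with a median of 6341 bp.

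The peaks came from CUT&RUN-seq, in which an antibody guides a nuclease to cut out the DNA carrying a chosen histone mark, on nuclei from the hippocampus of male Emx1-NuTRAP mice. In these animals Emx1-driven Cre switches on a tagged nuclear envelope and ribosome, mainly in excitatory forebrain neurons, and a small part of the tagged cells can be glia since Emx1 is active in their progenitors. Exercised mice could run on a wheel between postnatal days 21 and 41, sedentary mice could not, and tissue was collected the day after that period. Nuclei came from the SIT procedure (RNA and nuclei from 1 lysate of both hippocampi, 4 samples labelled per group) or from a separate isolation of the left or the right hippocampus (3 samples labelled per group), and each mark, condition and arm had 1 deposited list. A list is a pooled value of its group: it holds no signal, no depth and no replicate, and the authors had left out some exercised H4K8ac libraries for a high false discovery rate, more of the separate isolations than of SIT. Outliers of both conditions, more of them sedentary, were also dropped from the matched RNA data. The study gives reduced numbers of SIT mice where it sets peaks beside RNA, so the SIT lists of both conditions may be reduced. How many libraries stand behind each left and right list is not stated. Exercised and sedentary lists may thus both rest on fewer libraries than the labels count.

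Acetylation of lysine 8 on histone H4 loosens the contact of histones with DNA and is read by bromodomain proteins, and it marks active promoters and enhancers. Most such peaks are short. Long unbroken stretches of histone acetylation are known from stretch enhancers and super-enhancers, which tend to lie on genes that define a cell's identity, transcription factors among them. H3K27me3, the mark of Polycomb repression, was profiled in the same arms and served here for comparison.

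In several lists the widths of peaks stepped along the chromosomes, in an order that was not shared between lists. In the sedentary left list 2.43% of peaks on chromosomes 1 to 14 were broad, with a median width of 1531 bp over all peaks there, and 0.25% on chromosomes 15 to 19, with a median of 1190 bp. The other 5 lists held between 0.872 and 3.23% broad peaks on chromosomes 15 to 19. In the exercised SIT list the share was 3.27% up to 50 Mb on chromosome 17 and 1.23% from there through chromosome 19, against 0.801 and 0.926% in the sedentary SIT list. The exercised left list held 43 peaks on chromosome 19 and 1 on chromosome X, where the sedentary left list held 665 and 51. The part of these steps in the results below was not tested, so the tested comparisons, the broad peak shares and the coverage by arm are also given for chromosomes 1 to 14, where 1651 of the domains lie. No list held a broad peak on chromosome X, where the widest peak had 3201 bp, or on Y.

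**Figure D1:**
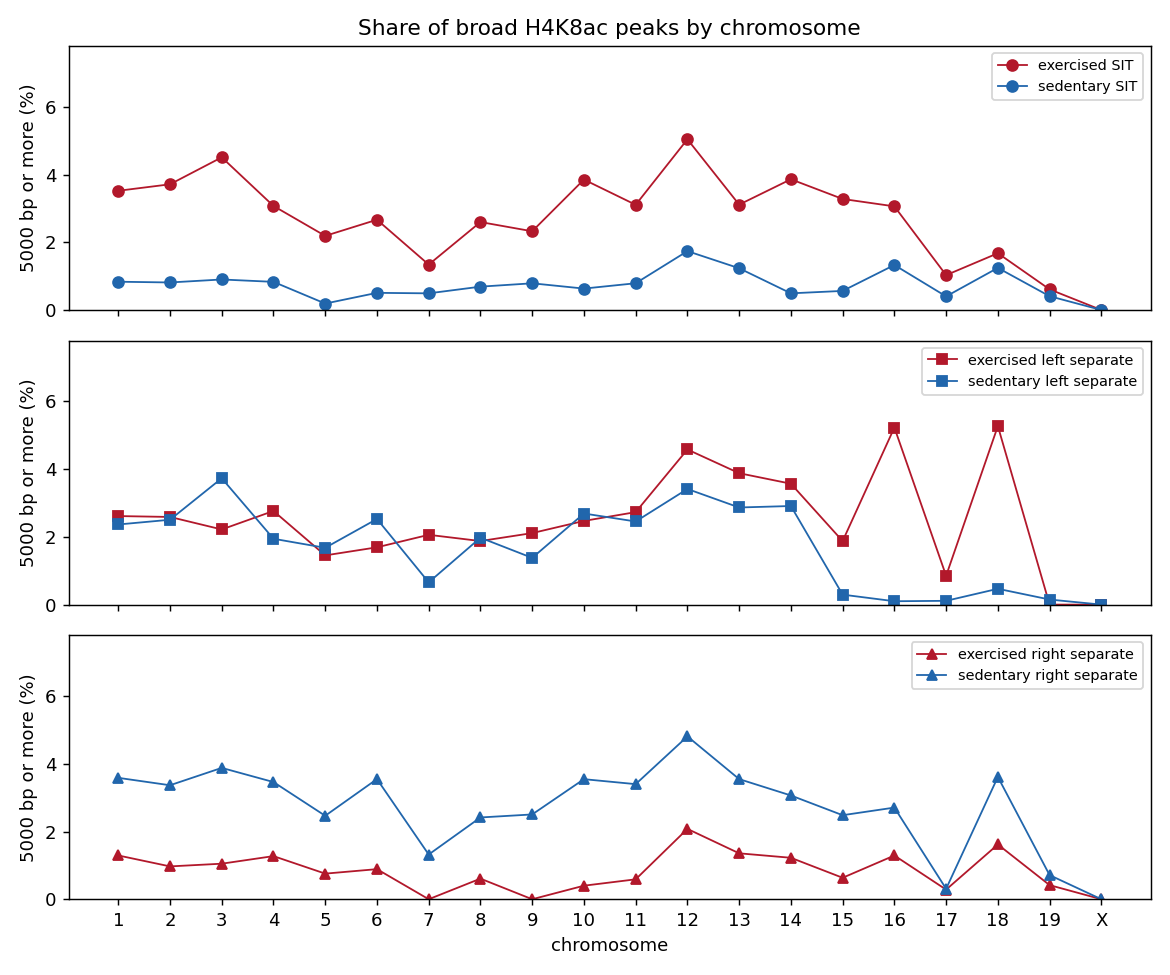
Share of peaks of 5000 bp or more (%, y axis) on each chromosome (x axis) for the exercised (red) and sedentary (blue) H4K8ac lists of the SIT, left and right arms. The sedentary left list falls from 2.91% on chromosome 14 to 0.295% on chromosome 15, where the exercised left list holds 3.57 and 1.88% and rises again to 5.23% on chromosome 16.

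To show the DNA at the centre of such domains, 300 bases are printed for 5 of the 15 domains that were broad in most lists, taken at the middle of the bases that the widest peak of every list shared, leaving out windows that touch an annotated exon. They are on the plus strand of GRCm38, in lower case, with capitals for the letters searched for 5 transcription factor motifs on both strands. The motifs were AP-1 (TGANTCA), the cAMP response element (TGACGTCA), a neuronal E-box (CAGATG), NFI (TTGGC and GCCAA, 5 bases apart) and EGR (GCGTGGGCG), and no motif contains another.
Distal intergenic domain assigned to Ccnh, chr13:84755547-84755846: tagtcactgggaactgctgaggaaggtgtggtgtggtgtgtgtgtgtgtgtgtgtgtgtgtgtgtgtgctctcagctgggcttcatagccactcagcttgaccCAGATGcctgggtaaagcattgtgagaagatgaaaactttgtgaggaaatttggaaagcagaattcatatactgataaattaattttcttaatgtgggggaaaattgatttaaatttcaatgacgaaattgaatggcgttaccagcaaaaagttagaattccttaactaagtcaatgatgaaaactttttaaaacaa
Domain assigned to Prkd1, window outside coding and lncRNA genes, chr12:50115866-50116165: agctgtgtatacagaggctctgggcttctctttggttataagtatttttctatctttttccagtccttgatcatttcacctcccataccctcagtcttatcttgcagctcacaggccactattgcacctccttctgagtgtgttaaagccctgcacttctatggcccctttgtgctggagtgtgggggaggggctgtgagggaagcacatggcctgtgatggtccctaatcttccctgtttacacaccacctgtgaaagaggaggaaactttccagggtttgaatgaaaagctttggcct
Domain inside the gene 5730522E02Rik, chr11:25854552-25854851: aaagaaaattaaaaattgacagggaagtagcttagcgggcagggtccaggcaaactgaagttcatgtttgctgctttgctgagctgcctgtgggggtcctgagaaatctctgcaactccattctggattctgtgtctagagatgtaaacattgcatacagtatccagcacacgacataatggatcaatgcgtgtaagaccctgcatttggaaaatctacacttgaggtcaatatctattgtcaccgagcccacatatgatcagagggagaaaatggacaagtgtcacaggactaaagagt
Domain at the 3′ end of Zbtb18, window downstream of the gene, chr1:177456366-177456665: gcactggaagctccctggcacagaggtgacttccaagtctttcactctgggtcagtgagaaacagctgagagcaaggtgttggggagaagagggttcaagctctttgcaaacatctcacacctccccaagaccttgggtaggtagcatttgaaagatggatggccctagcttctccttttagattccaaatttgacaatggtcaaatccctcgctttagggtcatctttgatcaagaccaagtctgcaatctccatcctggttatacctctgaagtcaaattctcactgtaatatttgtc
Domain assigned to the antisense gene Gm11266 and inside Nfib, chr4:82537425-82537724: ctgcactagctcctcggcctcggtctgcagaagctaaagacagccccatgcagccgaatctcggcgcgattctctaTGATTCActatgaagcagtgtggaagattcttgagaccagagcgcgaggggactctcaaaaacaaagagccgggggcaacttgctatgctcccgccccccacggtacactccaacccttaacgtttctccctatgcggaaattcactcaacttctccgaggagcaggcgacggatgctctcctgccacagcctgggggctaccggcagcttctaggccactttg

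These windows held 1 E-box (at Ccnh) and 1 AP-1 match (at Gm11266), and the other 3 held none of the 5 motifs. The window inside Nfib had 57% GC and 17 CpG dinucleotides, and the other 4 had 38.7 to 48.3% GC and 0 to 4. Over the middle 300 bases of all broad peaks, an AP-1 match was present in 6.11 to 10.3% of windows depending on the list, against 9.54 to 11.0% in narrower peaks of at least 300 bp. The E-box was present in 20.6 to 24.97% against 23.2 to 24.1%. The cAMP response element, NFI and EGR letters were each in at most 0.383% of windows of either kind.

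The lists held very different numbers of broad peaks. In SIT, 1192 of 38136 exercised peaks were broad (3.13%, 95% Wilson interval 2.96 to 3.31) and 245 of 30358 sedentary peaks (0.807%, 0.712 to 0.914). In the left arm, 331 of 12168 exercised peaks were broad (2.72%, 2.45 to 3.02) and 772 of 36425 sedentary peaks (2.12%, 1.98 to 2.27). In the right arm, 131 of 13715 exercised peaks were broad (0.955%, 0.806 to 1.13) and 797 of 25159 sedentary peaks (3.17%, 2.96 to 3.39). The intervals cover counting of peaks within a list only, and no list has a replicate. The share was thus higher in the exercised list of SIT and of the left arm, and higher in the sedentary list of the right arm. On chromosomes 1 to 14 the exercised minus sedentary difference was 2.52 percentage points in SIT, 0.194 in the left arm and -2.39 in the right arm. No test was run on these shares, since they are what chose the domains.

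**Figure D2:**
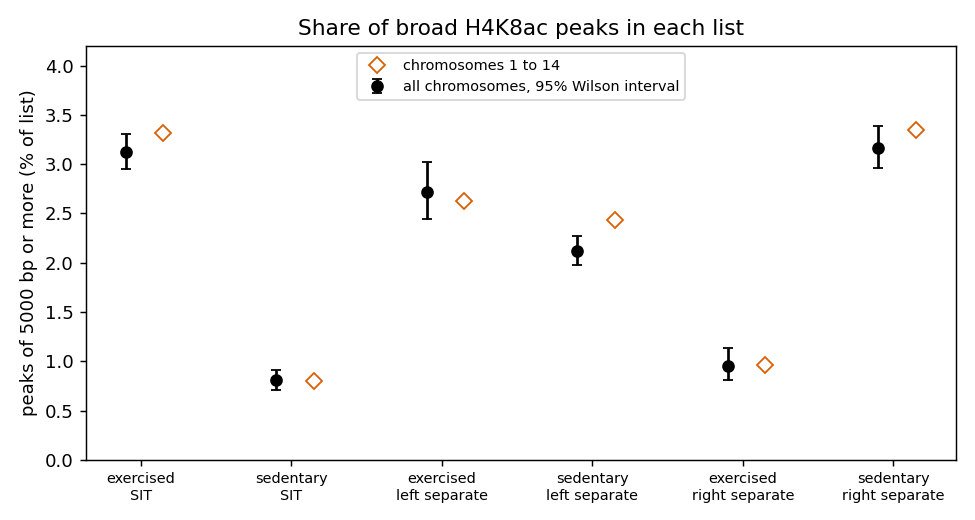
Share of peaks of 5000 bp or more (%, y axis) in each H4K8ac list, over all chromosomes with a 95% Wilson interval (black) and on chromosomes 1 to 14 (open orange). The exercised list lies above the sedentary one in SIT (3.13 against 0.807%) and below it in the right arm (0.955 against 3.17%).

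Broad peaks were a small share of peaks but a larger share of the acetylated bases. They held 10.7% of covered bases in the exercised SIT list and 3.54% in the sedentary SIT list, 9.04 and 8.24% in the left arm, and 3.71 and 9.95% in the right arm. Their median widths were close to each other, from 5836 to 6239 bp, where the threshold itself holds such medians close to it. Peaks of 20000 bp or more numbered 15 in the exercised SIT list, 6 in sedentary right, 5 in sedentary left, 2 in exercised left and 0 in both the sedentary SIT and exercised right lists.

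The threshold cut a smooth range of widths. Over the 6 lists, 241 peaks were less than 100 bp above it and 236 were at most 100 bp below it. The 3 peaks just inside it had 5000 bp each, in introns assigned to Lmo4 and Sh3gl2 in the sedentary left list and at the promoter assigned to Ccdc33 in the exercised SIT list. The 3 just outside it were 1 or 2 bp too short, in an intron at Pam in exercised left, at a promoter at Msra in sedentary SIT and in a distal intergenic stretch near Etv1 in sedentary right.

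Most domains were broad in few lists. A broad peak was present in 1 list for 1086 domains, in 2 lists for 365, in 3 for 212, in 4 for 102, in 5 for 59 and in all 6 for 33. Domains broad in more lists were longer, from a median of 5636 bp for those broad in 1 list to 15824 bp for those broad in all 6, which follows in part from the merging. Absence of a broad peak seldom meant absence of a peak. Of the domains not broad in a given list, between 79.2% (exercised left) and 97.6% (exercised SIT) held a narrower peak of that list, and 1249 of the 1857 domains held a peak of some width in all 6 lists. Where a list was not broad, its peaks still covered a median of 34.1% (exercised right) to 69.5% (exercised SIT) of the domain.

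The same held between conditions. In SIT, 976 domains were broad in the exercised list alone, 51 in the sedentary list alone and 187 in both, and 916 of the 976 held a narrower sedentary peak. In the left arm the numbers were 134, 560 and 177, and in the right arm 42, 696 and 83. Of the 696 domains broad in the sedentary right list alone, 597 held a narrower exercised right peak. As for the lists broad at the same domain, 428 domains were shared by exercised SIT and sedentary right, which is 36.8% of the former's domains and 54.9% of the latter's. The exercised and sedentary SIT lists shared 187, which is 16.1% and 78.6% of theirs.

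By position, the widest peak of a domain was intronic in 560 domains (30.2%), distal intergenic in 481 (25.9%), at a promoter in 457 (24.6%), exonic in 255 (13.7%) and in a 3′ UTR in 81 (4.36%). A promoter is here a place within 3 kb of a transcript start. The domains overlapped a protein-coding gene of GENCODE M21 in 1166 cases (62.8%) and held a coding transcript start in 317 (17.1%). The assigned symbol was the gene with the nearest coding start in 1225 domains (66.0%), and in the remaining domains it could be a non-coding gene or one farther away. Domains broad in all 6 lists had a promoter peak in 15 of 33 cases (45.5%), and those broad in 1 list in 231 of 1086 (21.3%). The former are longer and hold more broad peaks, which gives them more chances to reach a start, so the shares are not comparable.

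The 33 domains that were broad in all lists were assigned to coding genes of several kinds, such as the transcription factor genes Tcf4 and Mef2c, the phospholipase gene Pla2g4a and the receptor gene Gpr37, and to non-coding genes. Beyond those described next, they included domains assigned to Mir145b, Sdccag8 (at 2 places), 3110039M20Rik, Snx10, Zmynd8, Mef2c, A830082K12Rik, Dpyd, Gtdc1, Mir99ahg, Atf7ip, Prkd1 and 1810007C17Rik (1 more each), Dnajb12, Mir3093, Arhgap15 and Gm17750 (1 more). Some of these were neighbours of others: A830082K12Rik is antisense to Nr2f1, and the domain assigned to Mir145b lies before the start of Tcf4.

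The longest domain was at Tcf4, chr18:69553969-69600875, inside the gene (ENSMUSG00000053477, chr18:69343356-69689079) and over a start of its shorter transcripts. Tcf4 encodes a basic helix-loop-helix E protein needed for neuronal development. Its widest peak had 31316 bp in exercised SIT, 17422 bp in sedentary SIT, 41266 bp in exercised left, 5499 bp in sedentary left, 10322 bp in exercised right and 35468 bp in sedentary right. The sedentary left list, which had few broad peaks on this chromosome, broke the domain into 9 peaks that covered 43.9% of it, and the exercised left list covered 96.9% with 3. The widest peaks at Tcf4 were also the widest peaks of the whole exercised SIT, exercised left and sedentary right lists. In all 14 domains were assigned to Tcf4, more than to any other symbol, with 172743 bp between them.

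Bcl11a, a zinc finger repressor active in the developing forebrain, held a domain of 38878 bp, chr11:24080848-24119725. Its widest peak had 22994 bp in exercised SIT and 14722 bp in sedentary SIT, 16390 and 19439 bp in exercised and sedentary left, and 10353 and 19822 bp in exercised and sedentary right. The domain lay over the first part of the gene, and every list broke it into 4 to 6 peaks.

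Nr2f1, an orphan nuclear receptor that patterns cortex and hippocampus, held a domain of 31281 bp, chr13:78167662-78198942, with a start site of the gene inside. The widest peak had 23345 and 8060 bp in exercised and sedentary SIT, 12895 and 10345 bp in the left arm, and 5020 and 19037 bp in the right arm. The exercised right value is close to the threshold, and there the domain was in 7 peaks.

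On chromosome 12 lay the domain assigned to the lincRNA 1810007C17Rik, chr12:49942027-49956611, with widest peaks of 10840 to 14585 bp, and the one assigned to Prkd1, chr12:50104031-50125087, with 14545 to 20340 bp. The latter lay 524011 bp from the nearest coding start, so its assigned gene, a protein kinase D, is a label of distance.

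A group of long domains lay on chromosome 13 around Mef2c and Tmem161b. Mef2c encodes a MADS-box factor that regulates synapse number in hippocampal neurons, and its domain, chr13:83651238-83668210, had widest peaks of 11434 and 6911 bp in exercised and sedentary SIT, 5828 and 16176 bp in the left arm, and 5226 and 15321 bp in the right arm. The domain at the lincRNA Gm17750, chr13:84050222-84070619, varied least of the 3 domains with the largest summed widths. Its widest peak had 18852 and 18946 bp in exercised and sedentary SIT, 18824 and 20398 bp in the left arm, and 17606 and 19232 bp in the right arm. The domain assigned to Ccnh, chr13:84740858-84767748, overlapped no coding gene and lay 421660 bp from the start of Ccnh, which encodes cyclin H. Its widest peak had 26891 and 16396 bp in SIT, 21177 and 21476 bp in the left arm, and 19372 and 25060 bp in the right arm, exercised before sedentary. It was also the longest distal intergenic domain and held the widest peak of the exercised right list. Between them lay distal domains assigned to Tmem161b at chr13:84340153-84358906, where no exercised right peak was present and the sedentary SIT peaks reached 1840 bp, and at chr13:84617560-84635050, broad in 3 lists. The other two of the 5 longest distal domains were assigned to Gria2, an AMPA receptor subunit gene, chr3:80660220-80677895, broad in 4 lists with widest peaks of 1526 to 16769 bp, and to Olfm4, chr14:80235928-80253003, broad in 3 with 1610 to 9179 bp.

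**Figure D3:**
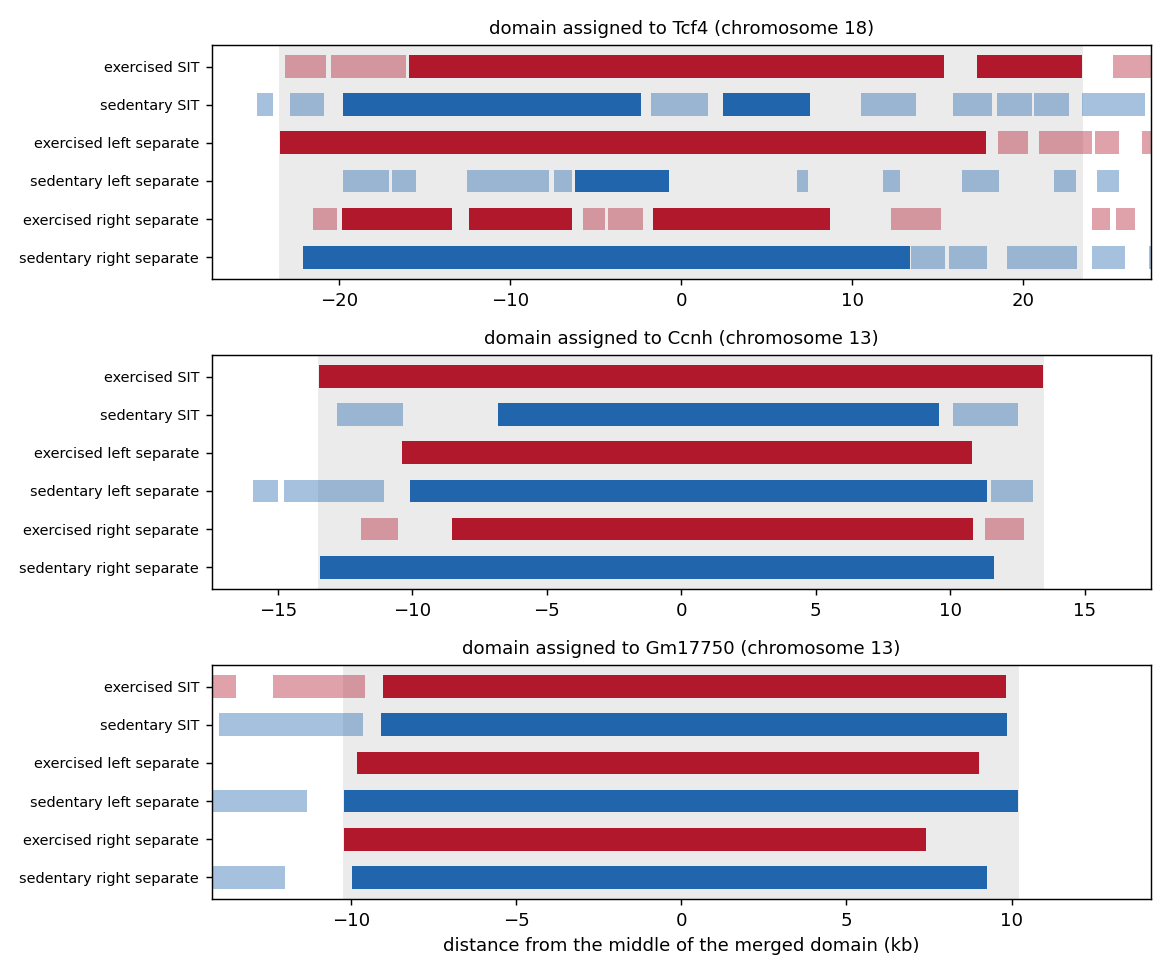
Peaks of the 6 lists over the domains assigned to Tcf4, Ccnh and Gm17750, by distance from the middle of the merged domain (kb, x axis). Red bars are exercised lists and blue bars sedentary lists, full colour is a peak of 5000 bp or more, pale is a narrower one, and grey shading is the merged domain. Gm17750 is held with a widest peak of 17606 to 20398 bp in each list, while Tcf4 ranges from 3 peaks with one of 41266 bp to 9 peaks of at most 5499 bp.

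Genes of the nuclear factor I family lay under several domains. The family was looked at after these values were seen. Its members bind DNA as dimers and act in glial and neuronal differentiation. The domain named after E130114P18Rik, chr4:97777866-97798845, covered the 5′ part of Nfia and had widest peaks of 19504 and 7170 bp in exercised and sedentary SIT, 15658 and 19916 bp in the left arm, and 7942 and 19799 bp in the right arm. Nfib held 6 domains on its gene body with 72006 bp in all, and those named after its antisense gene Gm11266, chr4:82529869-82547163 and chr4:82580921-82596744, were broad in all 6 lists with widest peaks of 9504 to 17295 bp and 7047 to 15824 bp. Nfix held 4 domains, with widest peaks of 20869 and 14896 bp in SIT, 13395 and 25304 bp in the left arm, and no broad peak and 21500 bp in the right arm. Nfic held none. In the same way Bcl11b had 1 domain, broad in 2 lists, where Bcl11a had 4. Of the E proteins, Tcf3 and Tcf12 had none. Over all protein-coding genes a domain overlapped the body of 3.43%, and gene length was not matched between members of these families.

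Other domains among the 15 were at genes of other kinds. The domain at Pla2g4a, which encodes a cytosolic phospholipase A2, chr1:149850481-149885986, varied widely, with widest peaks of 27866 and 6330 bp in exercised and sedentary SIT, 5059 and 23516 bp in the left arm, and 10445 and 23257 bp in the right arm. Its sedentary SIT list broke it into 10 peaks. The domain at Zbtb18, a zinc finger repressor of cortical development, chr1:177448976-177464167, was in contrast 12341 to 15192 bp in every list. The domain at 5730522E02Rik, chr11:25843549-25868921, had widest peaks of 7118 to 25373 bp, and the one at Gpr37, an orphan receptor of the brain, chr6:25667938-25691542, had 6312 to 23128 bp.

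**Figure D4:**
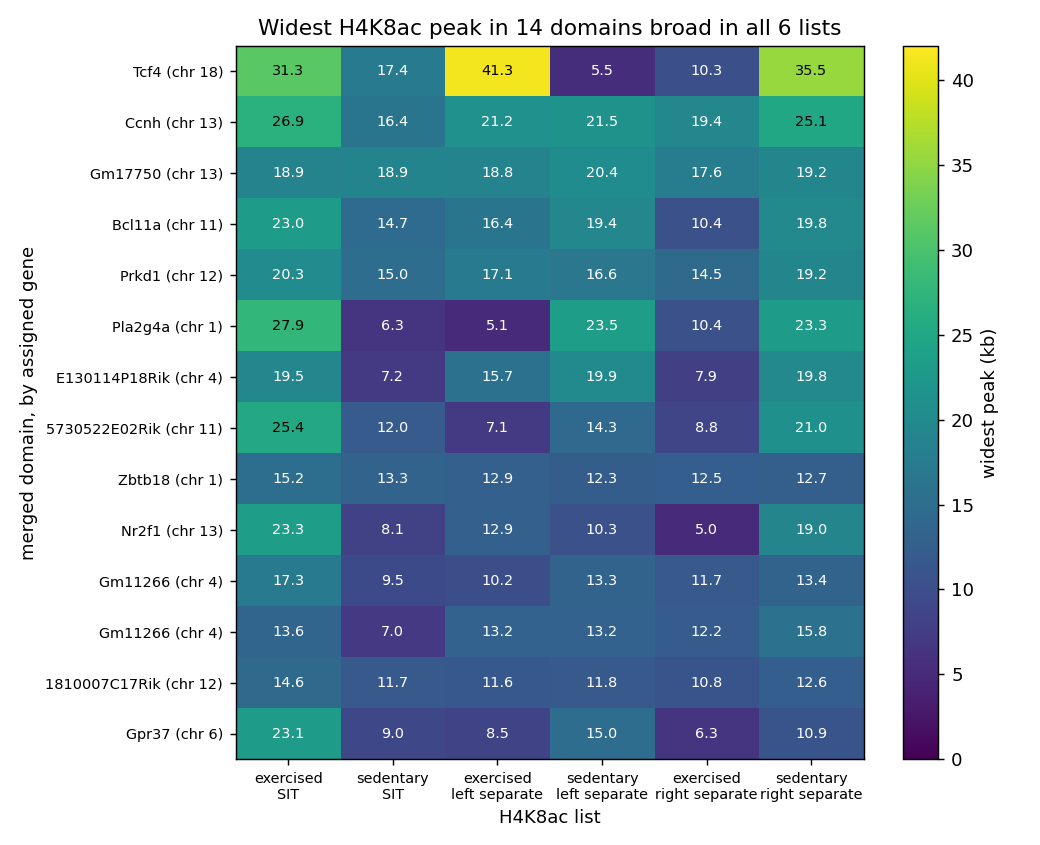
Width of the widest H4K8ac peak (kb, colour and printed value) in each list (columns) for 14 of the 15 domains broad in all 6 lists with the largest summed widths (rows, by assigned gene). Gm17750 and Zbtb18 keep similar widths across lists (17606 to 20398 bp and 12341 to 15192 bp), while Tcf4 ranges from 5499 to 41266 bp.

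Within these 33 domains the arms differed in direction. The widest peak was wider in the exercised than in the sedentary list at 31 of 33 domains in SIT, 8 of 33 in the left arm and 0 of 33 in the right arm. The counts were 28, 5 and 0 of 30 on chromosomes 1 to 14. Over all 1857 domains, the exercised list covered more of the domain at 1641 and the sedentary list at 212 in SIT, at 398 and 1434 in the left arm, and at 199 and 1630 in the right arm. A domain that is broad in 1 list alone entered through that list, 534 of them through exercised SIT and 23 through sedentary SIT, so these counts are in large part fixed by the choice of domains. On chromosomes 1 to 14 they were 1473 and 177, 276 and 1359, and 180 and 1445. Over the 61696 regions without a broad peak, many of which held no peak of an arm, the exercised list covered more at 29870 and the sedentary list at 14779 in SIT, at 5436 and 28335 in the left arm, and at 5574 and 19463 in the right arm, and on chromosomes 1 to 14 at 24952 and 11763, 4133 and 24429, and 4461 and 16157. Fewer or shallower libraries behind a list cannot be told apart from less acetylation.

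Of the 1857 domains, 29 were broad in exercised lists of 2 or more arms and in no sedentary list, and 78 in the reverse. The lists held from 131 to 1192 broad peaks each, so these counts are not comparable, and neither was made on chromosomes 1 to 14. The domains were chosen by the contrast itself and are given as values. By summed widest peaks, the 29 were led by a domain assigned to Npy1r, a neuropeptide Y receptor, chr8:66770405-66789623, which overlapped no coding gene. It lay 70594 bp from the nearest coding start, that of Naf1, to which a peak of the domain was also assigned. Its widest peaks had 12668 bp in exercised SIT, 6337 bp in exercised right and 2317 to 4248 bp in the other 4 lists. Next came an intronic domain of Msra, a methionine sulfoxide reductase, chr14:64367974-64379167, with 8867 bp in exercised SIT, 9929 bp in exercised left and 1879 to 4402 bp elsewhere. The domain in Lmo3, a LIM-only transcriptional cofactor, chr6:138407370-138416722, was the one broad in all 3 exercised lists and no sedentary list, at 5477, 5361 and 6156 bp in SIT, left and right, against 2422, 2901 and 3522 bp in the sedentary lists. The domains assigned to Mir9-2, chr13:83743972-83752242, and to Arap3, chr18:38091485-38099449, were broad in exercised SIT and exercised left, with 7392 and 8271 bp and with 7614 and 7831 bp. The latter lay 92516 bp from the start of Arap3, on chromosome 18, where 5.27% of exercised left and 0.468% of sedentary left peaks were broad. All 5 held a peak in each sedentary list. By covered bases the exercised list held more at all 5 in SIT, and at all but Npy1r in the left arm. In the right arm the sedentary list covered more at all but Msra. There it covered 6661 bp at Lmo3 against 6156 bp in the exercised list, and 12321 against 10159 bp at Npy1r.

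By summed widest peaks, the 78 were led by a distal domain assigned to Mpdz, a PDZ scaffold protein, chr4:81561176-81575639, 118361 bp from the start of that gene. Its widest peaks had 5974, 6905 and 13230 bp in sedentary SIT, left and right against 3574, 3166 and 1500 bp in the exercised lists. Arhgap15, a Rac GTPase activator, had a domain at chr2:44023305-44035418 broad in the 3 sedentary lists at 5713, 6981 and 5062 bp, with 3389 and 2109 bp in exercised SIT and right and no peak in exercised left. The domains assigned to 4932413F04Rik, chr9:103542317-103560025, Gm5086, chr13:97545434-97556773, and Akt2, the kinase of insulin signalling, chr7:27596529-27607072, were broad in the left and right sedentary lists, with 10572 and 11875 bp, 11305 and 7396 bp, and 10544 and 6277 bp. By covered bases the sedentary list held more at all of these domains in the left and right arms. In SIT it held more at Arhgap15 alone, and at Mpdz the exercised list covered 10714 bp against 8233 bp. The widest peak of the sedentary left list lay at none of these domains but at A830018L16Rik, chr1:11558418-11583906, with 25489 bp.

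Many domains stood close to one another. With domains joined where at most 100 kb apart, a distance chosen after the values were seen, 1112 of the 1857 domains stood in groups of 2 or more, and 46 groups held 5 or more. The same count was not made for all H4K8ac regions, so whether broad domains stand closer together than other regions was not tested. The largest by number held 17 domains over 466899 bp at Msra, chr14:64121031-64587929, followed by 14 at Ttc7b on chromosome 12, and 13 each at Tcf4, at Myt1l and at Zeb2. Myt1l encodes a zinc finger factor that holds neuronal identity, and Zeb2 a repressor needed for neuronal migration. Of the 1101 assigned symbols, 739 had 1 domain and 200 had 2. After Tcf4, the symbols with most were 5730522E02Rik and Zeb2 with 11 each and St6galnac3, Anks1b and Hivep2 with 10 each.

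Genes of the excitatory neuron list held domains often. A broad peak was assigned to 906 of 21911 protein-coding genes (4.13%), and a domain overlapped the body of 751 (3.43%). Of 15 excitatory neuron genes, 8 were assigned a broad peak (53.3%), among them Neurod1, Neurod2, Tbr1, Bcl11b, Zbtb20, Grin2b and Mef2c. Widths given here are of the widest peak assigned to the gene. Tbr1, a T-box factor of glutamatergic neurons, was broad in 5 lists, with 13469 and 5800 bp in exercised and sedentary SIT, 2961 and 11579 bp in the left arm, and 6091 and 9668 bp in the right arm. Neurod1, a helix-loop-helix factor of granule neurons, was broad in 4, with 12746 and 5378 bp in SIT, 7677 and 4334 bp in the left arm, and 1826 and 5328 bp in the right arm. Grin2b, an NMDA receptor subunit, was broad in the sedentary left list alone at 8177 bp.

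The lists of other cells were too short to be read against the background of 4.13%. None of 12 GABAergic interneuron genes, 7 microglial genes or 6 endothelial genes was assigned a broad peak, though 5, 4 and 3 of them had a peak of some width. Of 8 astrocyte genes 1 (12.5%), Slc1a2, a glutamate transporter, was broad in 3 lists with up to 6389 bp, and of 9 oligodendrocyte lineage genes 1 (11.1%), Mbp, a myelin protein, was broad in 2 with up to 7843 bp. No housekeeping gene of 12 was assigned one, although 9 had a peak. Gene length was not matched between these lists.

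Of 17 immediate early genes, which neurons switch on within minutes of activity, 5 were assigned a broad peak (29.4%), and a domain overlapped the gene body of 3 (17.6%), Nr4a2, Nr4a3 and Bdnf. Bdnf, the neurotrophin, had 8703 and 4769 bp in exercised and sedentary SIT, 2589 and 6234 bp in the left arm, and 2895 and 3741 bp in the right arm. Nr4a3, an orphan nuclear receptor, had 7407 and 3946 bp in SIT, 6364 and 4764 bp in the left arm, and 2208 and 4794 bp in the right arm. Nr4a2 reached 8225 bp, Egr3 7064 bp and Jun 6167 bp, each in a sedentary list, and the domains assigned to Egr3 and Jun lay outside the gene bodies. Of 20 synapse genes 7 had one (35.0%), with Syt1, the calcium sensor of vesicle release, at 10033 bp in exercised SIT and 4176 to 6819 bp in the other lists. Dlgap1, Dlgap3, Shank2, Nrxn3, Nlgn1 and Snap25 had widest peaks of 5042 to 7226 bp, and each was broad in 1 or 2 lists. Of 22 writers, erasers and readers of acetylation 3 had one (13.6%): Hdac9, a deacetylase, was broad in 5 lists at 5107 to 7260 bp, Hdac11 in 2 and the acetyltransferase gene Kat6b in 1.

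Among 12 genes that the study itself took up, Bdnf alone held a domain. The list was chosen by the study on these samples and is no independent evidence of direction. Prox1, a factor of dentate granule cells, had widest peaks of 2138 and 1108 bp in exercised and sedentary SIT, none and 1168 bp in the left arm, and none and 1697 bp in the right arm. Kptn reached 4747 bp in sedentary left and Efnb2 3419 bp in the same list. No peak of any list was assigned to Myoc or Rtl1.

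Each list was then compared within itself, its broad peaks against its narrower ones, to ask what broad peaks share. Some of the measures below are not free of width. For 6 measures the differences were tested over the 6 lists by flipping their signs (exact permutation test, two-sided), with Benjamini-Hochberg adjustment; the smallest unadjusted p that 6 lists allow rounds to 0.031. Lists are not replicates of 1 condition and share regions, so the test says how alike the lists were in direction.

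Broad peaks of a list were found again in other lists more often. The midpoint of a broad peak lay in a peak of another list for 64.8 to 83.4% of peaks (mean over the 5 other lists), and that of a narrower peak for 29.9 to 54.5%. The difference was 34.0 percentage points ± 8.66 (SD, n = 6 lists), higher in 6 of 6, with an adjusted p = 0.0375 by the exact permutation test. Against narrower peaks of at least 2000 bp it was 17.996 points, and on chromosomes 1 to 14 it was 33.6. How widely the other lists covered these stretches was not matched, and widths in the same 6 lists chose the domains. The difference is therefore not free of width.

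H3K27me3 was nearly absent from narrower H4K8ac peaks and lower still in broad ones. Between 0 and 0.228% of their bases lay under an H3K27me3 peak of the same arm and condition, against 0.042 to 0.400% of bases of narrower peaks, a difference of -0.120 points ± 0.0744 (SD, n = 6 lists), lower in 6 of 6, adjusted p = 0.0375 by the exact permutation test. In all, 6 of 1857 domains touched an H3K27me3 peak in any list, and the same count was not made for regions without a broad peak. Since both shares are under 1%, the difference is small in bases. The exercised right H3K27me3 list also stepped in width, with a median of 2996 bp on chromosomes 1 to 12 and 2204 bp on 13 to 19, and the difference was -0.114 on chromosomes 1 to 12 and -0.121 on 1 to 14. Against narrower peaks of at least 2000 bp it was -0.0688, and it still passed. For peaks of 10000 bp or more it was -0.130 and no longer passed (exact permutation p = 0.15625), nor did it pass as a share of peaks with any overlap (-0.210 points), each with 1 list turned.

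The link to promoters depended on how a peak was placed. As annotated by the authors, which uses the edge of a peak nearest to a start, 25.4 to 33.2% of broad peaks and 19.2 to 26.5% of narrower peaks were promoter peaks, a difference of 3.96 points ± 3.06 (SD, n = 6 lists), higher in 6 of 6, adjusted p = 0.0375 by the exact permutation test. A wider peak reaches more starts by its length. Placed by midpoint within 3000 bp of the assigned start, broad peaks were lower in 5 of 6 lists, by a mean of -2.66 points (permutation p = 0.09375, exact), with 16.9 to 21.1% against 17.6 to 24.4%. On chromosomes 1 to 14 the annotated difference was 2.60 points and no longer passed (exact permutation p = 0.09375).

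Around start sites, broad peaks lay more to the side of the gene body. Among peaks with the assigned start inside, a median of 52.7 to 63.7% of the bases of broad peaks lay downstream of it, against 50.2 to 54.3% for narrower peaks, a difference of 6.25 points ± 4.93 (SD, n = 6 lists), higher in 6 of 6, adjusted p = 0.0375 by the exact permutation test. On chromosomes 1 to 14 it was 2.90 points with an exact permutation p = 0.59375, and against narrower peaks of at least 2000 bp it was 4.16 with 0.15625, so this difference was lost in both settings.

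The assigned transcripts were longer for broad peaks, with medians of 24316 to 28722 bp against 23499 to 24667 bp, a difference of 2649 bp ± 1769 (SD, n = 6 lists), higher in 6 of 6, adjusted p = 0.0375 by the exact permutation test. On chromosomes 1 to 14 it was 1696 bp, higher in 4 of 6 lists, with an exact permutation p = 0.28125. Against narrower peaks of at least 2000 bp it was 2125 bp and in promoter peaks 2697 bp, each with an exact permutation p = 0.125, and for peaks of 10000 bp or more it was 19601 bp, which passed. CpG density was not shown to differ, at 0.986 to 1.22 per 100 bp in broad and 0.965 to 1.15 in narrower peaks, with a difference of 0.0029 ± 0.087 (SD, n = 6 lists) and adjusted p = 0.906 by the exact permutation test, and 0.0051 on chromosomes 1 to 14.

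**Figure D5:**
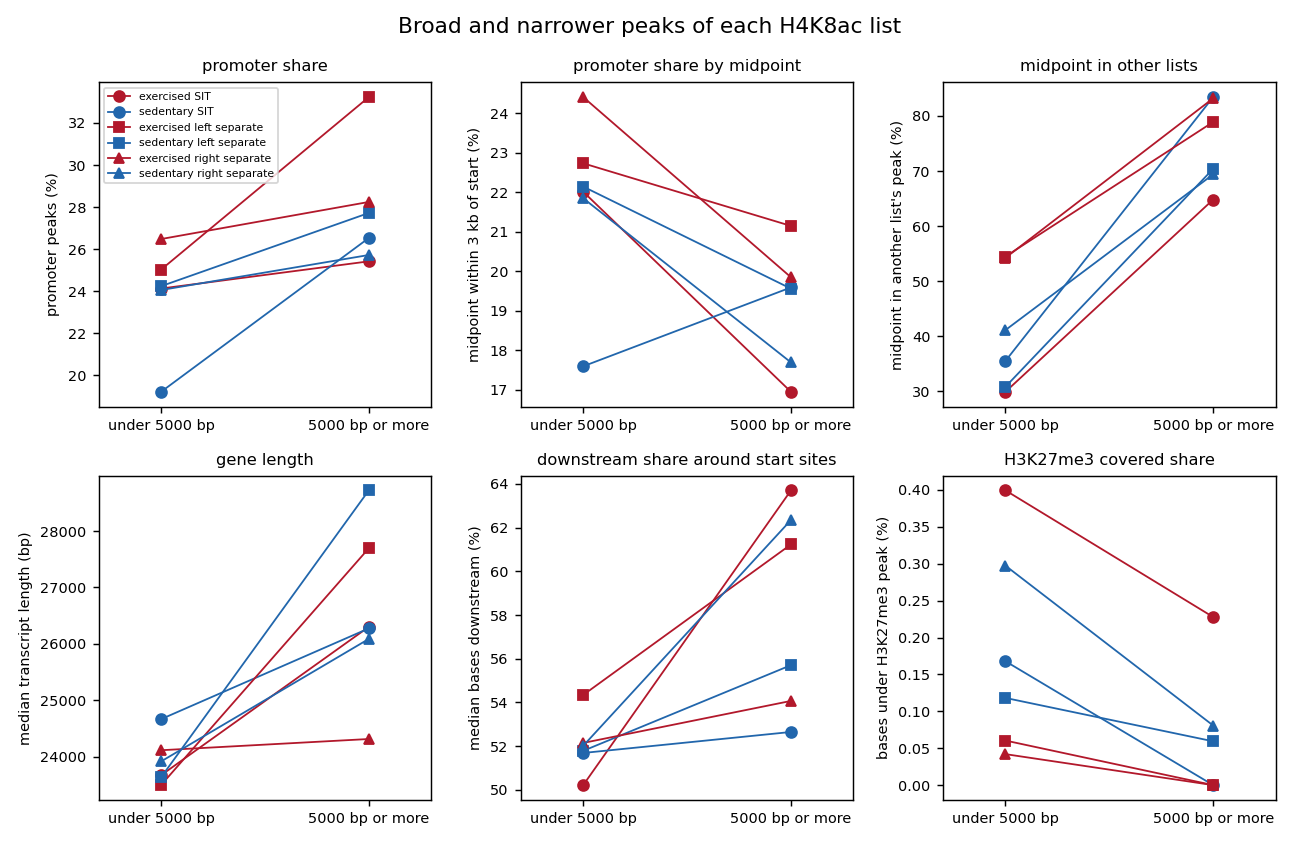
Values for narrower (left) and broad (right) peaks of each of the 6 lists, joined by a line per list (red exercised, blue sedentary; circle SIT, square left, triangle right), for 6 measures whose units stand on the y axes, which do not start at 0. Promoter share rises from narrower to broad in 6 of 6 lists as annotated and falls in 5 of 6 when peaks are placed by midpoint.

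Some measures were not put to a test. Exonic peaks were 12.4 to 18.3% of broad peaks and 6.68 to 8.07% of narrower peaks, and distal intergenic peaks were 16.3 to 26.4% and 26.0 to 31.0%. A class is given where any part of a peak meets the feature, so a wider peak meets an exon more often by its width, and these shares were not matched for width. A protein-coding transcript was assigned to 74.7 to 80.7% of broad peaks and 82.9 to 84.8% of narrower ones, so non-coding genes were named more often at broad peaks in all 6 lists.

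The promoter share of broad peaks was also compared between conditions. It was 25.4% in exercised and 26.5% in sedentary SIT, 33.2 and 27.7% in the left arm, and 28.2 and 25.7% in the right arm. The mean difference, exercised minus sedentary, was 2.31 points ± 3.32 (SD, n = 3 arms) with a two-sided exact sign-flip permutation p = 0.5, where the smallest possible is 0.25. On chromosomes 1 to 14 it was 0.944 points with an exact permutation p = 0.75.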

How the data were processed

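CUT&RUN-seq peak lists of H4K8ac and H3K27me3 were used, 1 per condition and arm. Per the study's methods and processing notes, the authors checked reads with FastQC 0.11.9, aligned them with Bowtie2 2.4.1, called peaks with SEACR (stringent) and annotated them with ChIPseeker 1.8.6 on mm10 calling a peak a promoter peak up to 3 kb from a start. Exercised H4K8ac libraries with a high false discovery rate were left out, and how libraries were combined is not stated. Per the file headers, the deposited tables give start, end, width, transcript length and distance to the start in bp, an annotation and a symbol. They hold no counts, signal or score, so depth is unknown. Starts look like 0-based values, so they may be 1 bp low and widths 1 bp high. Coordinates are given as in the files.

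Peaks of 5000 bp or more were merged where they overlapped. Gene bodies came from GENCODE M21, in which 99.0% of assigned transcripts were found, and sequence from RefSeq's GRCm38 assembly; none is printed from chromosome 18. Python 3.11.15, numpy 2.4.6, pandas 2.3.3, scipy 1.17.1 and matplotlib 3.10.9 were used, and the interval and test code was tested on simulated data. Groups were taken from the labels, and IgG samples are not analysed here. The domains and gene lists were chosen with earlier results of these data known.

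Text names the 15 domains broad in most lists (ties by summed widest peaks; 1 of them is not reported here), the widest peak per list, the 5 widest domains broad in one condition over 2 or more arms and not in the other, gene list members with a domain, the 3 peaks on either side of 5000 bp and the 5 widest distal domains. Restriction to chromosomes 1 to 14, or 1 to 12, was chosen after seeing the data.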

Additional observations from a re-analysis of the deposited data

Results flagged for a closer look

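The exercised and sedentary lists differed in opposite directions between arms in their share of broad peaks. The difference, exercised minus sedentary, was 2.32 percentage points in SIT, 0.601 in the left arm and -2.21 in the right arm. Each value rests on 1 list per condition, and the difference between arms was not tested. In the same arms the exercised list held 1.26, 0.334 and 0.545 times as many peaks as the sedentary list.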

How the results depend on the processing

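No paired analysis was possible because the pooled lists carry no replicate numbers; pairs elsewhere are lists of an arm or peaks of a list. There were 3625 domains at 4000 bp and 176 at 10000 bp. The exercised minus sedentary broad share kept its sign in each arm: it was 4.37, 1.29 and -4.54 points (SIT, left, right) at 4000 bp, 0.244, 0.0296 and -0.164 at 10000 bp, 7.12, 0.794 and -6.25 by covered bases, and 0.194 in the left arm on chromosomes 1 to 14. The promoter difference was 2.04 points at 4000 bp, 11.2 at 10000 bp and 2.60 on chromosomes 1 to 14, none of which passed, and -2.66 by midpoint. The H3K27me3 difference no longer passed at 10000 bp (-0.130) or as a share of peaks with an overlap (-0.210). Gene length no longer passed against narrower peaks of at least 2000 bp (2125 bp), on chromosomes 1 to 14 (1696 bp) or in promoter peaks (2697 bp), nor did the downstream share at 10000 bp (12.98), against narrower peaks of at least 2000 bp (4.16) or on chromosomes 1 to 14 (2.90). CpG density turned to -0.0254 against narrower peaks of at least 2000 bp, and the promoter share of broad peaks between conditions to -7.33 at 10000 bp. Apart from fewer peaks at 10000 bp, the cause was not tested. Averaged over conditions within 3 arms, the differences stayed at 3.96 points (promoter), -0.120 (H3K27me3), 34.0 (midpoint), 2649 bp (gene length) and 6.25 (downstream), where p cannot go below 0.25. Leaving out 1 list gave 3.11 to 4.49 (promoter), -0.135 to -0.100 (H3K27me3), -0.0219 to 0.0211 (CpG), 31.2 to 35.9 (midpoint), 2161 to 3139 bp (gene length) and 4.80 to 7.31 (downstream). With 5 lists p cannot pass 0.05, so these values give direction alone. The unknown depth of the lists limits every comparison of presence and width.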
